A study of Mus musculus with 2 samples.

Results

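Melanocytes of mouse ear skin were examined in a scRNA-seq study of allergic contact dermatitis (ACD). They were picked by a gate on 4 melanocyte genes, Dct, Pmel, Tyrp1 and Mlana: a kept cell was a member if it had at least 5 unique molecular identifiers (UMIs, each a counted mRNA molecule) of these genes with at least 2 of them found, no UMI of the leukocyte gene Ptprc or the fibroblast gene Pdgfra, and at most 5 UMIs of the keratinocyte genes Krt14 and Krt5. The gate found 415 melanocytes among 23878 kept cells, with 226 of 12213 in control skin and 189 of 11665 in ACD skin. Both groups were ICR mice of 7 to 8 weeks, and no transgene is named. The control group was healthy ear skin, for which no vehicle treatment is given. The ACD group had been sensitized with 1% of the hapten 2,4-dinitrofluorobenzene (DNFB) on the dorsal skin and challenged 6 days later with 0.2% DNFB on the ears, and ear skin was collected 60 hr after the challenge. Each condition was 1 library, so the condition cannot be told apart from the library, no test between the conditions was possible, and every interval given here is an exact 95% interval that covers counting error only. Where ratios are compared between cell types, the half-widths of their exact intervals were combined as a root of the sum of squares. Whether animals were pooled in a library is not given in the sources used here.

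Melanocytes descend from the neural crest. They make melanin in melanosomes, from tyrosine, with the enzymes tyrosinase (Tyr), Tyrp1 and Dct, on fibrils built from Pmel, and the factor Mitf drives these genes. ICR is an albino strain, whose melanocytes are present but form no pigment. When T cells release interferons, many cell types respond through STAT and IRF factors with a shared set of genes, including guanylate-binding proteins, antiviral proteins and the machinery that shows peptides to T cells on MHC class I and, more rarely outside immune cells, class II molecules. Melanocytes are the target of such T cells in vitiligo.

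Since the part of the promoter that Mitf binds is known, the windows of Mitf target genes are shown first. The 7-base M-box, TCATGTG, was searched on both strands of the 250 bases before each start in the RefSeq promoter table (GRCm38.p6). It was in 3.25% of all 32851 windows, and in 7 of 44 windows (15.9%) of the melanin synthesis and melanosome genes. The shorter CATGTG, which lies inside it, was in 12.3% of all windows and in 10 of 44 of these. The 7 genes were Dct, Hps1, Slc24a5, Slc7a11, Trpm1, Tyr and Tyrp1. The 5 with the largest excess in melanocytes over other cells are printed from 5′ to 3′ in the direction of the gene, with the M-box in capitals. The Dct window (chr14:118052247-118052496, minus strand) holds matches at bases 151 to 145 and, on the opposite strand, 232 to 226 before the start. The match in Tyr (chr7:87493513-87493632, minus strand) lies at bases 22 to 16, that in Tyrp1 (chr4:80834155-80834183, plus strand) at 47 to 41, that in Slc24a5 (chr2:125068103-125068126, plus strand, opposite strand) at 13 to 7 and that in Trpm1 (chr7:64153675-64153834, plus strand) at 142 to 136. GENCODE M21 annotates an exon under all 29 bases shown for Tyrp1 and under 3 of the 24 shown for Slc24a5. A match is a description of the letters, not a site of binding.
Dct: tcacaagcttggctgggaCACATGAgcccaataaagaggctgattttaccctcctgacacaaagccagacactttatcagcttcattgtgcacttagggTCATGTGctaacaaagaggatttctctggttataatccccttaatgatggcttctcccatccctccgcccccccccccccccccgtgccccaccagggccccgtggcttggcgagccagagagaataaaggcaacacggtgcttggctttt
Tyr: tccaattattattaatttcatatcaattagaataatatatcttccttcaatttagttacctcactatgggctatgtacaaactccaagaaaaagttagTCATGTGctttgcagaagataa
Tyrp1: tggggagggagTCATGTGctgcctagtag
Slc24a5: aggagactgctCACATGAttcagc
Trpm1: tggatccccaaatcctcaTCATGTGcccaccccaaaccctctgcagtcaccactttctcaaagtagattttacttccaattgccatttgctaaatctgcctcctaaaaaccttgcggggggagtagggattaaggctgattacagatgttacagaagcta

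The gate was separated from its surroundings by few cells. Outside it, 5 control and 6 ACD cells without the excluded genes had 3 or 4 UMIs of the gate genes, and 5 and 3 members had 5 to 7. The median member had 99.5 UMIs of these genes in control and 106 in ACD skin, and all 4 genes were found in 175 and 162 members. Before the exclusions, 249 and 220 cells were positive. Ptprc removed 5 of them in control and 25 in ACD skin, Pdgfra 16 and 7, and the keratinocyte genes 4 and 1. Members were 1.85% of kept control cells (1.62 to 2.11) and 1.62% of kept ACD cells (1.40 to 1.87), a log2 ratio of -0.19 (-0.48 to 0.09). With cells that had a Ptprc UMI left out of the denominator the ratio was 0.33 (0.04 to 0.62), so the sign of the share depends on whether leukocytes are counted. The members held 1172715 UMIs in control and 1221360 in ACD skin, with medians of 4997.5 and 6006 UMIs and 2122.5 and 2431 genes per cell, and a median of 4.72% and 4.10% mitochondrial UMIs. The libraries shared 50 barcodes, which 0 control and 3 ACD members carried, and none was a member in both.

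RNA of other cells was present among the members and is given here because it bears on the ratios. The 11 fibroblast markers, all of them detected, summed to 4433 UMIs in control and 2166 in ACD members, and the 9 chondrocyte markers in the files to 1107 and 707. The 12 myeloid markers summed to 85 and 123, with C1qa, Itgax, Adgre1 and Csf1r at 0 in both groups, and the 14 T and NK cell markers to 12 and 68, with 11 of them, Cd3e and Cd3d included, at 0 in control members. Of the 505 UMIs of 10 mast cell and basophil markers in ACD members, 497 were in 1 cell, and control members had 3. The 16 glia markers, some of which melanocytes share, summed to 1732 and 1951 UMIs. Keratinocyte markers summed to 80 and 119 UMIs, endothelial and mural markers to 198 and 159 with Cdh5 at 0, and red cell genes to 109 and 128. A Krt14 or Krt5 UMI was found in 6 control and 37 ACD members. The part of these cells and of free RNA in the ratios was not tested beyond the values given beside the results. In places below, members with 3 or 20 or more UMIs of another cell type's markers are left out, with each list counted alone. The lists used were those of fibroblasts, chondrocytes, T and NK cells, myeloid cells, mast cells and basophils, and endothelial and mural cells. The glia, keratinocyte and red cell lists were not used, so this step did not remove mixing with those cells.

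The level of a gene is given as its UMIs per 1000000 UMIs of the melanocytes in that library. The 4 genes of the gate chose the cells, so their values are a description only. Dct had the most UMIs of the 4, with 11963 UMIs in control and 13303 in ACD members, or levels of 10201 and 10892. Pmel had levels of 6446 and 5678, Tyrp1 5022 and 3641, and Mlana 3279 and 3350. Among cells thinned to 2000 UMIs, Dct was found in every member, with a median of 19 UMIs in control and 19.5 in ACD cells and maxima of 87 and 57. Pmel was at 0 in 31 of 197 control and 25 of 174 ACD cells, and Tyrp1 in 10 and 23. Members with more Pmel also had more Tyrp1, with a Spearman correlation over cells of 0.70 in control and 0.58 in ACD skin. Dct followed Pmel less closely, at 0.19 and 0.32. These points share their library and depth and are given as a description.

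The label of the cells was checked on 15 melanocyte genes that the gate did not use, and all 15 were found. Tyr, the rate-limiting enzyme of melanin synthesis, had 934 UMIs in control and 912 in ACD members, levels of 796 and 747, against 0.90 and 1.79 in all other kept cells. Mitf had levels of 681 and 645. Slc24a5, an ion exchanger of the melanosome, had levels of 1561 and 1333, Pax3, a neural crest factor, 369 and 431, and Trpm1, a channel gene and Mitf target, 327 and 395. Beside the gate genes, the 11 with the largest excess over other kept cells were, in order, Ptgds, Tyr, Slc24a5, Npy, Car6, Syngr1, Ednrb, Gsta1, Syt4, Pax3 and Trpm1. Of the 15, Gpr143, a melanosome receptor, and Kit had few UMIs, with 58 and 83 and with 65 and 84, and Gpnmb, a relative of Pmel, was also found outside the members, with levels in other kept cells of 135 in control and 46.9 in ACD skin against 3777 and 3334 in members.

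No melanocyte identity gene outside the gate differed by 2-fold between ACD and control members, and few of all genes tested did. The log2 ratio of ACD over control was -0.09 for Tyr (-0.23 to 0.04), -0.08 for Mitf (-0.22 to 0.07), 0.29 for Sox10 (0.06 to 0.52), 0.22 for Pax3 (0.04 to 0.41) and 0.31 for Kit, the receptor of stem cell factor (-0.17 to 0.80). Of the 15 identity genes, 0 were 2-fold higher or lower, and 1.32% of all genes tested were at least 2-fold higher and 0.492% at least 2-fold lower. The 0 of 15 is near these shares and does not set the list apart from other genes. Their intervals lay above 0 for 6 genes, below 0 for 4 and over 0 for 5. The median of 0.22 turned to -0.15 without members that had 3 or more UMIs of another cell type's markers and to -0.067 with members thinned to 2000 UMIs, while the summed level was 10361 in control and 9431 in ACD members. The list of melanin synthesis and melanosome genes holds the 4 gate genes, which supplied most of its UMIs and are left out here. Of the other 41, 29 passed the count filter of at least 50 UMIs in at least 10 members, and 0 of these were 2-fold higher or lower, again near the shares over all genes. Their median was -0.03 beside -0.04 over all genes tested. Summed, the 41 had levels of 11854 and 10901, a log2 ratio of -0.12 (-0.16 to -0.09).

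The identity gene with the lowest ratio was Ednrb, the endothelin receptor that guides melanoblasts. It had 1443 UMIs in 200 control members and 1015 in 152 ACD members, levels of 1230 and 831, and a log2 ratio of -0.57 (-0.68 to -0.45). Thinned to 2000 UMIs, 77.7% of control and 62.6% of ACD members had an Ednrb UMI. Tyrp1 was lower by a similar amount, at -0.46 (-0.52 to -0.41), and Mlph, which links melanosomes to the myosin motor, was at -0.36 (-0.55 to -0.17). Mc1r, the melanocortin receptor, was at 0.38 (0.12 to 0.63) with levels of 194 and 251, and Tfap2a, a neural crest factor, at 0.38 (0.10 to 0.66). Under the 15 alternatives of the processing that could change it, Ednrb kept ratios of -0.74 to -0.52, with -0.56 in the main setting, each with 10 UMIs per 1000000 added unless the alternative changed it.

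Some genes rich in melanocytes but outside the pigment program were higher in ACD members. Syt4, a vesicle protein, had 429 UMIs in 82 control members and 1117 in 106 ACD members, levels of 366 and 915, and a log2 ratio of 1.32 (1.16 to 1.49). Ptgds, which makes prostaglandin D2, had levels of 1757 and 3438, a log2 ratio of 0.97 (0.89 to 1.05), and Npy, neuropeptide Y, 660 and 1157, a ratio of 0.81 (0.68 to 0.94). Car6, a carbonic anhydrase, was lower, at 748 and 603 (-0.31, -0.45 to -0.17). Syngr1, at levels of 825 and 838, and Gsta1, at 526 and 506, had intervals that spanned 0. The ratio was also taken over the 69 control and 64 ACD members with fewer than 3 UMIs of each marker list other than those of glia, keratinocytes and red cells. With 10 UMIs per 1000000 added, it was 0.47 for Syt4, 0.41 for Ptgds and 0.49 for Npy, where it was 1.30, 0.96 and 0.80 with all members.

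**Figure D1:**
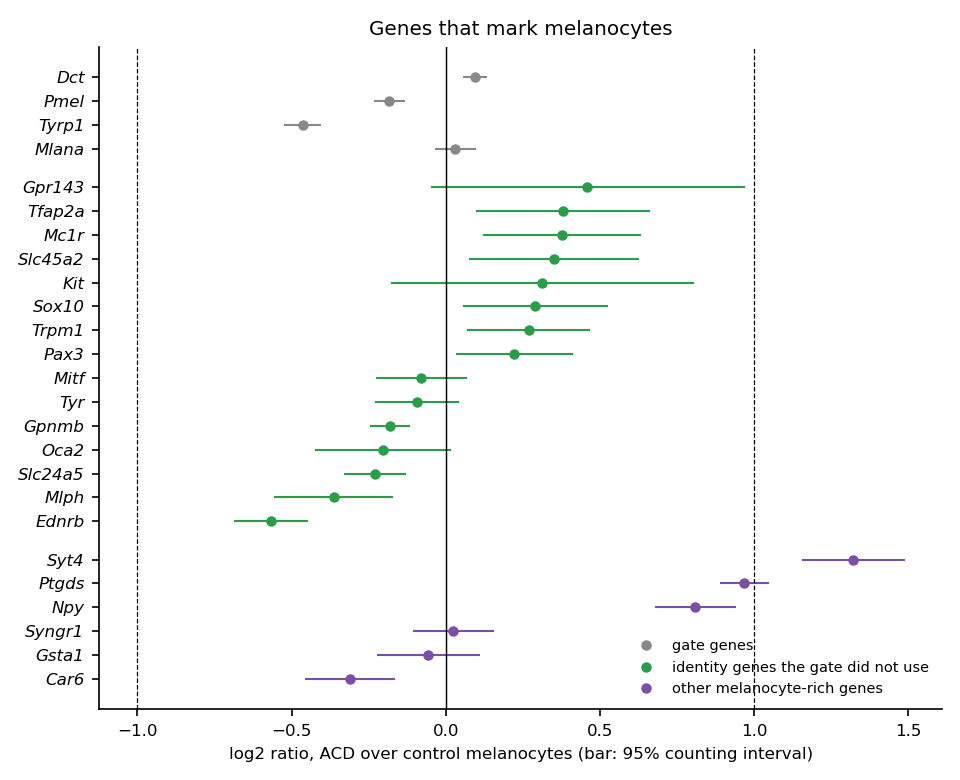
The x axis gives the log2 ratio of the level in ACD over control melanocytes, with bars for the 95% counting interval, and each line is a gene: the 4 gate genes in grey, 15 identity genes in green and 6 other melanocyte-rich genes in purple. Dashed lines mark 2-fold, and all identity genes lie between them, from -0.57 for Ednrb to 0.46 for Gpr143, while Syt4 lies beyond at 1.32.

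Across all genes, 6305 of the 14215 genes found in members passed the count filter. With 10 UMIs per 1000000 added to both levels, 83 of them (1.32%) were at least 2-fold higher and 31 (0.492%) at least 2-fold lower in ACD melanocytes, and the median log2 ratio was -0.04. A gene that was silent in control members could pass the filter only through its ACD counts, so for the immune lists the median over all genes found with a UMI is given beside what passed. The 15 highest genes were Gbp4, Psmb8, H2-Ab1, Cxcl10, Iigp1, Gbp2, Cd74, H2-Aa, Ifi27l2a, Igtp, Ifit3, Psmb9, Ifi47, Gbp3 and Tap1. All 15 are known interferon-induced genes, and all 15 stayed at least 2-fold higher under each of the 15 alternatives that could change a gene's ratio.

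**Figure D2:**
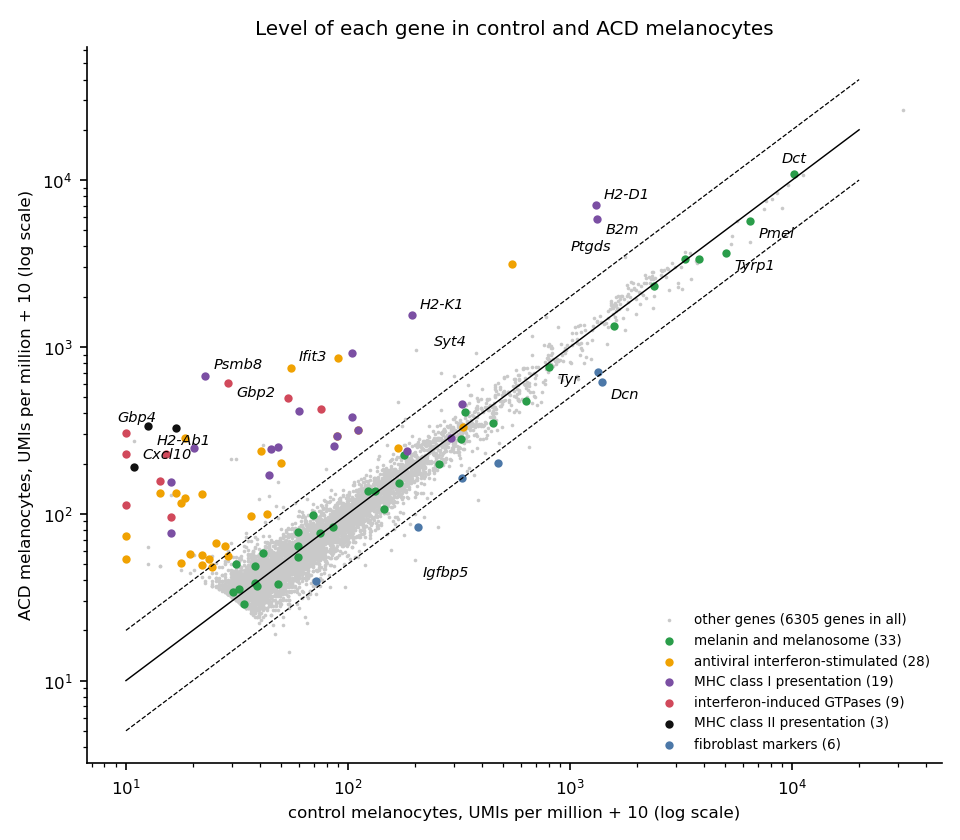
Each point is 1 of 6305 genes, with the level in control melanocytes on the x axis and in ACD melanocytes on the y axis, both in UMIs per 1000000 UMIs with 10 added and on log scales; the solid line marks equal levels, dashed lines mark 2-fold, and colors mark gene lists with the number of genes that passed the filter. Melanin genes in green, the gate genes among them, lie along the diagonal, the GTPase and MHC class II genes lie above it, as do the antiviral and MHC class I genes except Ifitm2 (0.01) and Canx (-0.02), which lie on it, and the fibroblast markers in blue lie below it.

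The interferon-induced GTPases, which attack vacuoles of intracellular pathogens, were higher in ACD members. All 9 that passed the filter of the 19 in the files were at least 2-fold higher, where 1.32% of all genes tested were. Of these, Gbp4, Iigp1, Ifi47, Gbp3, Igtp, Irgm2 and Gbp2 had fewer than 50 control UMIs and passed only through their ACD counts. The median over the 19 identifiers found with a UMI was 1.89, with 10 UMIs per 1000000 added to both levels. Gbp6 entered it under each of its identifiers, and Gvin1, at 0 in both groups, did not enter. Gbp4 (ENSMUSG00000079363, chr5:105115767-105139586) had 0 UMIs in control members and 361 in 68 ACD members, at least 115.5-fold higher against a floor of 3 control UMIs, and the exact interval of its log2 ratio began at 6.55. Iigp1 had 0 and 268 UMIs, at least 85.775-fold higher against this floor with an interval from 6.11, and Ifi47 0 and 126, at least 40.3-fold higher with an interval from 5.01. Gbp2 had 22 and 734 UMIs, levels of 18.8 and 601, and a log2 ratio of 5.002 (4.39 to 5.68). Igtp (6 and 268 UMIs) was at 5.42 (4.28 to 6.88) and Gbp3 (5 and 180) at 5.11 (3.86 to 6.75). Gbp7 and Irgm1, which were already found in 52 and 36 control members, were at 2.66 (2.31 to 3.02) and 3.48 (3.06 to 3.92). Summed, the family had a level of 148 in control and 2735 in ACD members. Gbp and Irg genes have close paralogs, between which the read assignment can be uncertain.

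The promoters of these genes are shown because the members were higher together. The IRF motif GAAANNGAA and the STAT motif TTCNNNGAA were searched on both strands in the same 250-base windows, and were chosen after the values were known. GAAANNGAA was in 7.13% of all windows, in 9 of 11 windows of the GTPases, 16 of 41 of the antiviral genes, 5 of 24 of the MHC class I genes, 1 of 9 of the MHC class II genes and 2 of 44 of the melanin genes. TTCNNNGAA was in 7.02% of all windows and in 6, 5, 2, 1 and 4 windows of the same lists. Capitals mark the matches, and on the opposite strand GAAANNGAA reads TTCNNTTTC. In Gbp3 (chr3:142559993-142560021) 2 matches overlap, at bases 44 to 36 and 38 to 30 before the start. Gbp2 (chr3:142620595-142620623) has a match at 58 to 50. Igtp (chr11:58199436-58199555) has the IRF motif at 34 to 26 beside the STAT motif at 45 to 37. Ifit3 (chr19:34583349-34583528) has 3 IRF motifs, at 155 to 147, 121 to 113 and 102 to 94. B2m (chr2:122147538-122147566) has 1 at 139 to 131. Irf1 (chr11:53769894-53770013) has the STAT motif at 90 to 82 and Psmb8 (chr17:34198088-34198116) at 97 to 89. All are on the plus strand of GRCm38.p6, and GENCODE M21 annotates exons under the 29 bases shown for Psmb8 and under 22 of those for Gbp2. The starts counted from are RefSeq starts. In GENCODE the Psmb8 gene begins at 34197721 and the Gbp2 gene at 142620602, so the matches of both lie inside the annotated gene.
Gbp3: acacagtTTCAGTTTCTATTTCccagatc
Gbp2: ctcttttagtTTCACTTTCactgtcttaa
Igtp: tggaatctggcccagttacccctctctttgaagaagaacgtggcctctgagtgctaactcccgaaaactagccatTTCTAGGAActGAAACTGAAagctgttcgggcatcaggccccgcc
Ifit3: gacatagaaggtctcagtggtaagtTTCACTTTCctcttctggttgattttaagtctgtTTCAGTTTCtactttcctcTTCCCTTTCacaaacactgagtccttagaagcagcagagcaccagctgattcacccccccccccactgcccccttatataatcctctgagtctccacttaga
B2m: ataagaacatGAAACTGAAaatgggaaag
Irf1: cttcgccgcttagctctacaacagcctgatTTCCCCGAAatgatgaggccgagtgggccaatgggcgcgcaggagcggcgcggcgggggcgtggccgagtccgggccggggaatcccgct
Psmb8: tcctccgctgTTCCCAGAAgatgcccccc

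Of 24 receptors, kinases, factors and feedback genes of the interferon pathway itself, 18 passed the filter, with a median log2 ratio of 0.17, and the median over all 24 was 0.18. Irf7, an amplifier of type I interferon, had 7 UMIs in control and 145 in ACD members, a log2 ratio of 4.31 (3.23 to 5.65). Irf9, a DNA-binding factor of the type I interferon response, had 29 and 81 UMIs, a ratio of 1.42 (0.80 to 2.09). Irf1 had levels of 165 and 326, a ratio of 0.98 (0.73 to 1.23). The receptor chain Ifngr2 was lower, with 42 and 25 UMIs (-0.81, -1.58 to -0.06), while the other chain, Ifngr1, had 28 and 37 UMIs. The feedback inhibitor Socs3 had an interval that spanned 0 (-0.11, -0.26 to 0.04).

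Most antiviral interferon-stimulated genes that could be measured were higher in ACD members. Of 44 genes, 28 passed the filter and 24 of these were at least 2-fold higher, where 1.32% of all genes tested were, with a median of 1.38 over the 40 that were found. Ifit3 had 53 UMIs in 39 control members and 906 in 128 ACD members, a log2 ratio of 4.04 (3.64 to 4.46). Bst2, which tethers virions, had levels of 80.2 and 843, a ratio of 3.40 (3.09 to 3.72). Ifi27l2a (10 and 337 UMIs) was at 5.02 (4.12 to 6.09). Ifitm3, a membrane protein against viral entry, was the most abundant, with levels of 537 and 3137 and a ratio of 2.55 (2.42 to 2.67), while its neighbor Ifitm2 had levels of 318 and 321 (0.01, -0.20 to 0.22). Ifit3 and Ifit3b are near-identical, so reads may be split between them.

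The MHC class I presentation genes summed to a level of 4210 in control and 19758 in ACD members. Of 29 names, 26 were in the files, 19 passed the filter and 16 were at least 2-fold higher, where 1.32% of all genes tested were, with a median of 1.87 over the 26. B2m, the light chain of class I, had 1542 UMIs in control and 7126 in ACD members, levels of 1315 and 5834, and a log2 ratio of 2.15 (2.07 to 2.23). The heavy chains H2-D1 and H2-K1 had levels of 1294 and 7033 (2.44, 2.36 to 2.52) and 183 and 1541 (3.07, 2.87 to 3.28). The immunoproteasome subunit Psmb8 (ENSMUSG00000024338, chr17:34197721-34201454) had 15 UMIs in 14 control members and 809 in 148 ACD members, a ratio of 5.69 (4.96 to 6.54), and Psmb9 had 12 and 289 UMIs, a ratio of 4.53 (3.70 to 5.50). Tap1, which carries peptides into the endoplasmic reticulum, had 7 and 178 UMIs, a ratio of 4.61 (3.54 to 5.95). The chaperones Calr and Canx, which serve all glycoproteins, were at 0.50 (0.30 to 0.69) and -0.02 (-0.25 to 0.20). Cd274, which encodes the T cell inhibitor PD-L1, had 90 and 299 UMIs, levels of 76.7 and 245, and a ratio of 1.67 (1.33 to 2.03).

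In cells thinned to 2000 UMIs, which left out 29 control and 15 ACD members, every ACD melanocyte had a class I UMI, as had all but 2 of 197 control melanocytes, and 129 of 174 ACD and 46 of 197 control melanocytes had a GTPase UMI. A Psmb8 UMI was found in 3.05% of control members and 60.9% of ACD members (6.19% and 78.3% unthinned), beside 0.722% and 10.03% of chondrocytes of the same libraries. The share in chondrocytes holds RNA free in the suspension together with any expression of their own. Before thinning, chondrocytes were deeper than members, with medians of 8985 UMIs in control and 10467 in ACD skin against 4997.5 and 6006. What this does to the part of free RNA in the shares here and below was not tested. H2-K1 was found in 31.0% and 86.2% of members. Ifit3 was found in 9.14% and 52.9% of members and in 0.914% and 2.21% of chondrocytes, and Gbp2 in 1.52% and 44.3% of members and 0.529% and 1.94% of chondrocytes. Gbp4 was found in 0 of 197 control members, where 3 counts of 197 would allow up to 1.52% of cells with a UMI at this depth, and in 24.1% of ACD members, with 0.602% of ACD chondrocytes. For each of these genes the share of ACD members was above that of ACD chondrocytes, which for H2-K1 was 55.1%, and 18.3% in control chondrocytes.

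The members of the ACD library were unequal. The summed GTPase UMIs of a thinned cell were 0 in 151 of 197 control members (76.6%) and 2 at most, while in ACD skin they were 0 in 45 of 174 (25.9%), with a median of 2 and a maximum of 31. MHC class I sums had a median of 8 in control and 37 in ACD members, and the lowest ACD member had 4. The antiviral sums had medians of 3 and 13.5, and the melanin genes without the gate genes 24 and 20. Within ACD skin, cells with more GTPase UMIs also had more antiviral UMIs (Spearman 0.71, n = 174 cells of 1 library at equal depth), more MHC class I UMIs (0.59) and more MHC class II UMIs (0.38), while the correlation with the melanin genes without the gate genes was -0.27 and with fibroblast markers -0.01.

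**Figure D3:**
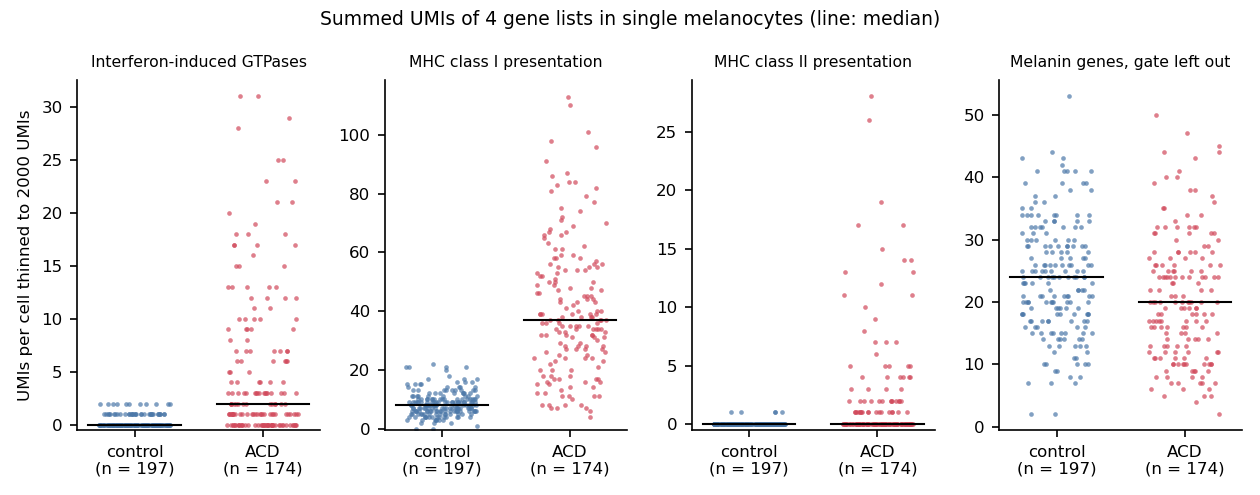
Each point is a melanocyte thinned to 2000 UMIs, with the summed UMIs of a gene list per cell on the y axis, control in blue (n = 197) and ACD in red (n = 174), and a line at the median. GTPase sums end at 2 in control and reach 31 in ACD cells, class I sums have medians of 8 and 37, class II sums are 0 in most cells of both groups, and sums of the melanin genes without the gate genes overlap with medians of 24 and 20.

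MHC class II genes, which present peptides to CD4+ T cells and are mainly made by immune cells, were found in a part of the ACD melanocytes. H2-Ab1, a class II beta chain, had 3 UMIs in control and 399 in 67 ACD members, a log2 ratio of 7.00 (5.44 to 9.28), and H2-Aa, the alpha chain, had 1 and 221 UMIs, a ratio of 7.73 (5.24 to 13.04). Cd74, the invariant chain, had 8 and 386 UMIs, a ratio of 5.53 (4.54 to 6.76). Of the 13 class II genes these 3 passed the filter, with H2-DMa at 0 and 38 UMIs and H2-Eb1 at 1 and 22 below it, and Ciita, the class II transactivator, at 0 and 4. The costimulatory genes Cd40, Cd80 and Cd86 were at 0 in both groups. The median over the 9 genes found was 1.37.

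The ACD library also held 4189 cells with a Ptprc UMI, which had 22513 H2-Ab1 UMIs and 55296 Cd74 UMIs, so the values that bear on free RNA are given. Thinned to 2000 UMIs, H2-Ab1 was in 0.508% of control and 25.3% (19.0 to 32.4) of ACD members, and in 6.28% (5.11 to 7.63) of ACD chondrocytes. Cd74 was in 22.4% (16.5 to 29.3) of ACD members and 14.6% (12.8 to 16.5) of ACD chondrocytes. For each H2-Ab1 UMI, ACD melanocytes had 0.967 Cd74 UMIs (0.839 to 1.12), cells with a Ptprc UMI 2.46 (2.42 to 2.49), chondrocytes 4.45 (4.12 to 4.80), keratinocytes 3.98 (3.45 to 4.61) and glia 0.683 (0.539 to 0.864). The ratio varied among the cell types, from 0.683 in glia to 4.45 in chondrocytes, and the source of the class II RNA was not tested. Of the 97 ACD members with a class II UMI before thinning, 90 had no UMI of the myeloid genes Tyrobp, Lyz2 and Fcer1g, and these 90 held 947 of the class II UMIs, against 147 in the other 7. Over the whole myeloid list and thinned cells, a class II UMI was found in 12 ACD members with a myeloid UMI, where 10 others with a myeloid UMI had none, and in 54 without a myeloid UMI, where 98 others had none, with a Spearman correlation of 0.16.

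Chemokines and cytokines were few. Of the 42 in the files 14 passed the filter and 1, Cxcl10, was at least 2-fold higher, where 1.32% of all genes tested were, with a median of -0.01 over the genes found. Cxcl10 passed only through its ACD counts. Cxcl10 (ENSMUSG00000034855, chr5:92346638-92348889), a ligand of CXCR3, a chemokine receptor of T cells, had 1 UMI in control and 323 in ACD members, a log2 ratio of 8.28 (5.79 to 13.58). These UMIs were concentrated in 34 ACD members, with 31.3% in 1 cell and 87.3% in the top 10. Thinned, Cxcl10 was found in 0 of 197 control members and 12.6% of ACD members, and in 2.54% of ACD chondrocytes. The other CXCR3 ligand measured, Cxcl9, had 0 and 20 UMIs. Csf1, a macrophage growth factor, had 17 and 42 UMIs (1.25, 0.40 to 2.15), Vegfa 20 and 46 (1.14, 0.36 to 1.98), and Mif, the most abundant of the list, levels of 862 and 841. Il1a, Il33 and Csf2 were at 0 in both groups.

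In the list of innate sensing, acute-phase and complement genes, 2 of the 13 that passed were at least 2-fold higher, both of the complement system, where 1.32% of all genes tested were. Of the 2, Serping1 passed the filter only through its ACD counts. The median over the 33 found was 0.22. C4b, a complement component, had 225 UMIs in 104 control members and 1158 in 153 ACD members, a log2 ratio of 2.31 (2.10 to 2.52), and Serping1, the inhibitor of the first component, 37 and 305, a ratio of 2.98 (2.49 to 3.52). Nfkbia, a target of NF-κB, had levels of 1010 and 1015 (0.01, -0.11 to 0.12).

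To show where melanocytes stood apart, the same levels were computed in cells gated in the same way on other genes: glia (295 control and 301 ACD cells), which share the neural crest origin, keratinocytes (143 and 99), the neighbors in the epidermis, and chondrocytes (2079 and 1496) of the ear cartilage. The differences of log2 ratios have counting intervals only. Psmb8 in melanocytes was above chondrocytes by 1.49 (0.67 to 2.41) and above keratinocytes by 2.35 (1.56 to 3.25), and its difference from glia was -0.15 (-1.29 to 0.98). Irf1 and Irf7 were likewise above chondrocytes, by 0.83 (0.58 to 1.09) and 3.14 (2.00 to 4.52), with differences from glia of -0.05 (-0.36 to 0.27) and 0.13 (-2.42 to 2.22). B2m had a smaller ratio in melanocytes than in glia, with a difference of -1.18 (-1.34 to -1.01). In glia its level was 422 in control and 4240 in ACD cells. H2-Ab1 was above glia by 3.75 (1.95 to 6.16) and above chondrocytes by 3.97 (2.39 to 6.27), and its difference from keratinocytes was -1.43 (-6.96 to 1.95). Cd74 was above glia by 2.35 (0.87 to 3.89). Cxcl10 had a ratio above that of glia by 6.24 (3.74 to 11.56), while its ACD level in glia, at 528 against 264 in melanocytes, was higher and its control level was 129. Cd274 was above keratinocytes by 1.91 (0.40 to 3.53) and its difference from glia was -2.03 (-4.38 to -0.37), with 3 control UMIs in glia.

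Over whole lists, the summed level of the GTPases had a log2 ratio of 4.20 (3.98 to 4.43) in melanocytes, 4.56 (4.25 to 4.89) in glia, 5.91 (5.12 to 6.82) in keratinocytes and 2.20 (2.09 to 2.31) in chondrocytes. For MHC class I the ratios were 2.23 (2.19 to 2.28), 2.90 (2.84 to 2.96), 1.77 (1.72 to 1.81) and 1.495 (1.48 to 1.51) in the same order. For the antiviral genes, melanocytes had the highest ratio, 2.27 (2.20 to 2.34), followed by glia at 1.87 (1.79 to 1.96), keratinocytes at 1.57 (1.52 to 1.63) and chondrocytes at 0.29 (0.27 to 0.31). MHC class II was at 6.04 (5.33 to 6.85) in melanocytes and 6.26 (5.75 to 6.83) in keratinocytes, intervals that overlap, and at 2.34 (1.95 to 2.74) in glia and 2.54 (2.45 to 2.64) in chondrocytes. RNA of other cells also differed in these cells. The level of myeloid markers was 9.03 in control and 73.2 in ACD keratinocytes, 372 and 271 in glia and 53.7 and 38.4 in chondrocytes. Red cell genes were at 53.2 and 11505 in keratinocytes, 162 and 3472 in glia and 142 and 2416 in chondrocytes. In melanocytes they were at 92.9 and 105. What this does to the ratios was not tested.

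**Figure D4:**
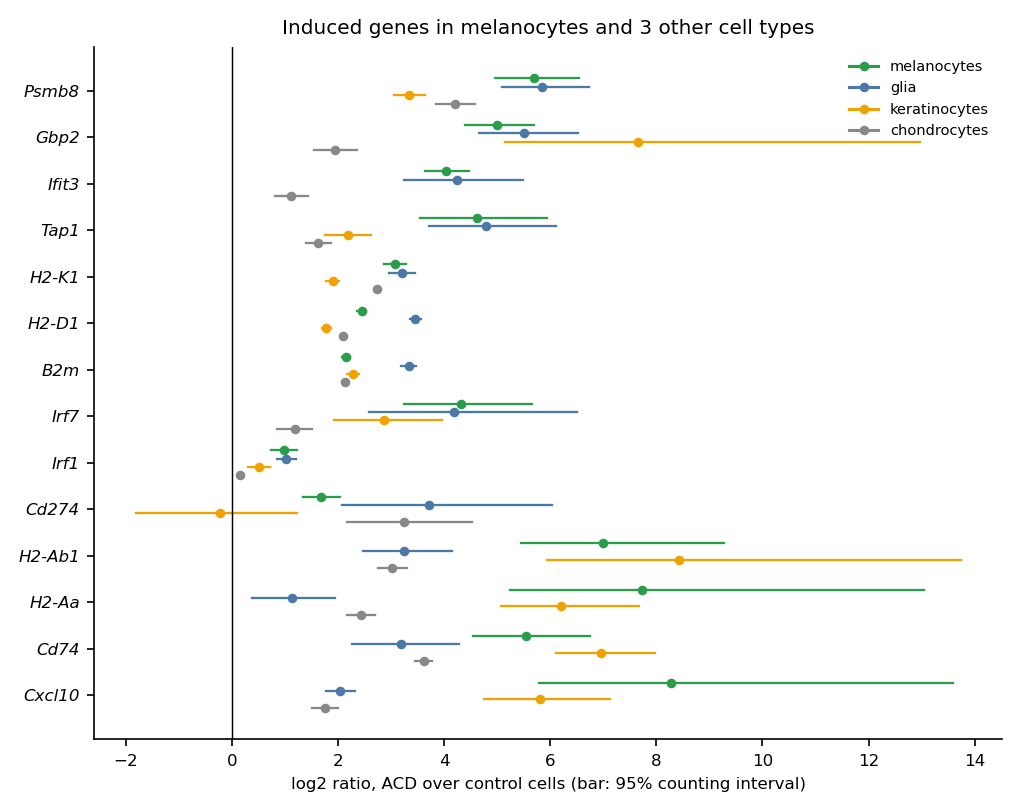
The x axis gives the log2 ratio of the level in ACD over control cells, with bars for the 95% counting interval, for 14 genes in melanocytes (green), glia (blue), keratinocytes (orange) and chondrocytes (grey); Ifit3 in keratinocytes is not drawn because its control count was 0. Melanocytes and glia lie close for Psmb8, Gbp2, Ifit3 and Tap1, and melanocytes lie farther right than glia for H2-Ab1, H2-Aa, Cd74 and Cxcl10.

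The 15 genes lowest in ACD members were Igfbp5, Igfbp6, Abi3bp, Coch, Igf1, Gas6, Rcan1, Mgp, Smoc2, Col1a1, Ucma, Aspn, Col6a1, Ikzf4 and Col1a2. Among them Col1a1, Col1a2, Col6a1, Abi3bp, Aspn, Mgp and Smoc2 encode matrix proteins and Ucma a cartilage protein. Igfbp5 had 222 UMIs in control and 52 in ACD members, a log2 ratio of -2.15 (-2.62 to -1.71). Col1a1, a type I collagen chain, had 231 and 90 UMIs, a ratio of -1.42 (-1.79 to -1.06). Of the 11 fibroblast markers 6 passed the filter and 3 were at least 2-fold lower, Dcn and the 2 type I collagen genes named above, where 0.492% of all genes were, and the summed level had a log2 ratio of -1.09 (-1.17 to -1.02). Dcn, a fibroblast proteoglycan, had 1620 UMIs in control and 735 in ACD members, and 80.4% of the control UMIs were in 10 cells. Of the control Coch UMIs, 76.8% were in 1 cell, as were 91.1% of the ACD UMIs.

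Of the 15 genes, 8 stayed at least 2-fold lower without the 14 control and 4 ACD members that Scrublet called doublets. A further subset was the 209 control and 181 ACD members with fewer than 20 UMIs of each marker list other than those of glia, keratinocytes and red cells. Among them 1 of the 15 stayed at least 2-fold lower, Ikzf4, an Ikaros family factor with 48 and 14 UMIs, and Coch and Smoc2 turned to 0.41 and 0.25. Over all genes the count at least 2-fold lower was 13 in place of 31 in these members, and the count at least 2-fold higher was 80 in place of 83.

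In lists of other processes, 2-fold calls were made only for genes that passed the filter and with 10 UMIs per 1000000 added. Over all genes tested, 1.32% were at least 2-fold higher and 0.492% at least 2-fold lower. With shares this low, 0 calls in a short list do not set it apart from other genes. Of the 34 adhesion and matrix contact genes 24 passed and 0 of these were called, with a median of -0.20. Without the addition, Jup, a junction protein, had 41 and 18 UMIs, a log2 ratio of -1.25 (-2.13 to -0.41), and Cdh3, P-cadherin, 40 and 78, a ratio of 0.90 (0.34 to 1.49). Of 40 melanocyte transcription factors and receptors, 30 passed and 0 were 2-fold either way. Tbx2, a repressor of senescence genes in melanocytes, had levels of 52.9 and 88.4 (0.74, 0.28 to 1.22), Foxd3, a neural crest factor, 66.5 and 101 (0.60, 0.18 to 1.03) and Met, the receptor of hepatocyte growth factor, 533 and 441 (-0.27, -0.44 to -0.10). The 70 respiratory chain genes all passed, with 0 at 2-fold and a median of 0.11. Of the 25 unfolded protein response genes 22 passed, of the 35 oxidative stress genes 30 and of the 25 p53 and growth arrest genes 18, and 0 of these were called. Cdkn1c, a cell cycle inhibitor of the last list, was at -1.11 without the addition and -0.96 with it. Among the oxidative stress genes Gstp1, a glutathione transferase, had levels of 868 and 1312 (0.60, 0.48 to 0.71), and its relative Gstm1 469 and 257 (-0.87, -1.07 to -0.66). The iron store gene Fth1 had levels of 8984 and 6823 (-0.40, -0.44 to -0.36).

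Of 42 cell cycle genes, 10 passed the filter and 0 were at 2-fold, which is near the shares over all genes tested, 1.32% higher and 0.492% lower. The proliferation genes Mki67, Ccna2, Aurkb, Plk1 and Birc5 were at 0 UMIs in both groups. Among the immediate-early and heat-shock genes, 2 of 34 were at least 2-fold higher, where 1.32% of all genes tested were. They were Hspa1a with levels of 253 and 690 (1.45, 1.25 to 1.64) and Hspa1b with 290 and 655 (1.18, 0.99 to 1.36). The pair are near-identical copies whose reads may be split. Hspa1a was also higher in ACD glia (0.96), keratinocytes (0.83) and chondrocytes (0.99). Ddit4, a stress-induced inhibitor of mTOR, was the 1 glycolysis and hypoxia gene of 25 at 2-fold, with 22 and 61 UMIs (1.41, 0.69 to 2.19). It passed the filter only through its ACD counts, and 1.32% of all genes tested were at least 2-fold higher.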

How the data were processed

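Single-cell RNA-seq of 1 control and 1 ACD library was used. The authors digested ear skin with collagenase D and DNase1, removed dead cells, made Chromium 3' v2 libraries and counted unique molecular identifiers (UMIs) with Cell Ranger 3.1.0 (per the file headers and the submitters' processing notes; the methods name another version) on mm10. The deposited values are raw UMI counts per gene and barcode for 27998 genes. They were not normalized, and the authors' clusters were not used here.

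Barcodes were kept if they held 201 to 4999 genes, no more than 25000 UMIs and less than 8% mitochondrial UMIs. In the methods this UMI limit has the other direction. Taking it as an upper limit leaves more cells than the study states. Doublets were not removed in the main values. Scrublet (scanpy 1.11.5) called 4.59% of control and 3.36% of ACD cells and served as an alternative. Levels are UMI sums over members per 1000000 UMIs, with exact Poisson intervals, and ratios have conditional exact binomial intervals. PCR duplicates were collapsed by UMI, but molecules of a cell are not independent, so intervals cover counting error only. Genes needed 50 UMIs over both libraries and 10 members. Ranks and 2-fold calls used 10 UMIs per 1000000 added to each level. A list's median over passing genes or over all found genes is on that scale, and other ratios have nothing added. Against 0 control UMIs, 3 were taken. Shares used cells thinned to 2000 UMIs (seed 1) and Clopper-Pearson intervals. With 1 library per condition no test was possible.

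The members and the 27 gene lists were chosen with earlier results of these data known. Named were the gate genes, 15 genes from the top and 15 from the bottom of the ranks, in each list with at least 3 passing genes the 4 most abundant and the 2 at each end by ratio, the identity genes and the 15 most melanocyte-rich genes. Some genes named by this rule are not reported here. Other genes named with values are members of these lists, chosen after their values were seen. Gene positions are from GENCODE M21 (GRCm38), which holds 27722 of the identifiers, and promoters from RefSeq (GRCm38.p6). Counts for 6305 genes of this comparison were simulated as Poisson draws from a profile shared by all cells of a library. In them 96.1% of intervals held the true ratio, 100% of genes changed 4-fold and 32.8% of those changed 2-fold were called, and 0 unchanged genes were called. Genes with UMIs concentrated in few members were not modeled, so these figures check the computation under counting error and are not error rates of the reported ratios. Python 3.11.15, numpy 2.4.6, scipy 1.17.1, pandas 2.3.3 and matplotlib 3.10.9 were used.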

Additional observations from a re-analysis of the deposited data

Results flagged for a closer look

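In 5 of the named genes the whole counting interval lay on one side of 0 in melanocytes and on the other side in glia, the other neural crest cells. With 1 library per condition the difference was not tested. Ednrb had a log2 ratio of ACD over control of -0.57 in melanocytes and 1.82 in glia, where it had 10 and 48 UMIs. Spp1, osteopontin, was at -1.08 in melanocytes, with 61 and 30 UMIs, and at 0.59 in glia. Mgp, a matrix protein of cartilage, was at -1.41 in melanocytes and 0.26 in glia, and Cytl1, a chondrocyte marker, at -0.69 and 0.30. The melanocyte UMIs of these 3 genes were concentrated, with 75.4% of the control and 86.7% of the ACD Spp1 UMIs, 54.6% and 50.3% of the Mgp UMIs and 81.5% and 86.1% of the Cytl1 UMIs in 10 members of each library. Without members with 20 or more UMIs of another cell type's markers, and with 10 UMIs per 1000000 added, the ratios were -0.72 for Spp1, -0.89 for Mgp and -0.31 for Cytl1, where they were -0.84, -1.37 and -0.68 with all members. The immediate-early gene Fos was at -0.085 and 0.16, and in melanocytes it turned to positive values under some alternatives of the processing.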

How the results depend on the processing

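With 1 library per condition, values were recomputed under 17 alternatives of the cell filter, gate, doublets, scaling and count filter, and 3 of these were chosen after seeing the data (members with 20 or more UMIs of another cell type's markers left out, members with a Krt14, Krt5 or myeloid UMI left out, cells with a Ptprc UMI kept). The 2 changes of the count filter cannot alter a gene's own ratio, and under the other 15, of 2535 ratios of 169 named genes, 2284 moved by less than their counting error, 222 moved further and 29 changed sign. For the 16 other lists the counts were 260, 9 and 2. A sign change was counted only where the main value lay beyond its counting error, which for a list was the median over its genes. Sign changes of other genes and lists fall in the other counts. The cause was not tested for any of the changes. Of the shares of cells, 14 moved by less than counting error and 22 further at 1000 UMIs or unthinned. No paired analysis was possible because each condition has 1 library.

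The log2 ratio of the melanocyte share was 0.17 with at least 500 genes and under 5% mitochondrial UMIs, -0.64 without members with a Krt14, Krt5 or myeloid UMI (162 and 99 members left) and 0.33 without Ptprc-positive cells in the denominator. The count of genes at least 2-fold higher was 50 without members with 3 or more UMIs of another marker list (69 and 64 left, 1559 genes tested), 135 with no count filter and 192 at 1.5-fold. The count at least 2-fold lower was 58 with the stricter cell filter, 20 and 13 without members with 3 or 20 such UMIs, 58 without those with a Krt14, Krt5 or myeloid UMI, 50 with Ptprc-positive cells kept, 76 with a pseudocount of 1 and 254 at 1.5-fold. List medians were 4.93 (pseudocount 1) and 1.89 (no filter) for the GTPases, 2.58 (no Krt14, Krt5 or myeloid UMI) and 2.79 (thinned) for the antiviral genes, 1.91 (at least 20 UMIs) and 1.87 (no filter) for MHC class I, and 6.53 (pseudocount 1) and 1.37 (no filter) for MHC class II genes, where they were 3.50, 1.64, 2.26 and 4.28 over the genes that passed.

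Signs were followed only for genes and lists whose main value lay beyond its counting error. Signs that turned were, without members with 3 or more UMIs of another marker list, the identity list (-0.15), Cdkn1a (0.19), Cdkn1c (0.54), Col1a1 (0.15), Dcn (0.12), Fos (0.41), Gas6 (1.13), Id1 (0.21), Igfbp6 (0.48), Lum (0.48), Nr4a2 (0.33), Slc45a2 (-0.58), Smoc2 (1.13) and Ucma (0.48). Without those with 20 or more they were Coch (0.41), Id1 (0.44), Lum (0.48), Smoc2 (0.25) and Sparc (0.019). Without Scrublet calls they were Fos (0.024), Id1 (0.19), Igf1 (0.55) and Lum (0.12). With members thinned to 2000 UMIs they were the identity list (-0.067), Ccnd3 (-0.022), Fos (0.18) and Ndufs4 (-0.036). The rest were Cdkn1a (0.079) without Krt14, Krt5 or myeloid UMIs, Fos as the mean over members (0.013) and without the 5 deepest members (0.065), and Gadd45g (-0.039) with the stricter cell filter.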

Other observations

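Among thinned cells of a library, which share their library and depth, the Spearman correlation of Slc24a5 with Oca2 was 0.40 in control and 0.48 in ACD members, and that of Tyr with Slc24a5 was 0.31 and 0.43. Tyr and Mitf had 0.095 and 0.30. The gate did not use these genes, and Oca2 was at 0 in 112 of 197 control and 120 of 174 ACD cells. The acute-phase gene Saa3 had 0 UMIs in control members and 36 in 9 ACD members, and Zbp1, a sensor of nucleic acids, 0 and 78, at least 24.96-fold higher. The neural crest adhesion gene L1cam had 41 and 73 UMIs, a log2 ratio of 0.77 (0.20 to 1.36).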
